A study of Mus musculus with 24 samples.

Results

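Oligodendrocyte precursor cells (OPCs) were one of the non-neuronal cell types that the study separated in the ventral hippocampus, and their transcripts were compared between 2 inbred strains, DBA/2J (D2) and C57BL/6J (B6). The study reported that its OPC clusters from RNA and from methylation did not match, and it left OPCs out of its later analyses. The members were the gene symbols with counts in the OPCs of both strains. They numbered 17926 of the 33902 symbols in the snRNA-seq count table, while 1971 symbols had counts in B6 only, 5337 in D2 only and 8668 in neither. The D2 libraries had counts for 20836 and 21050 symbols and the B6 libraries for 18224 and 18447. Whether both strains were counted against the same gene list was not tested. Counts in 1 strain only are therefore not read here as expression in that strain only. After a filter on low counts 11644 of the 17926 were tested, and the other 6282 were not. Each strain had 2 libraries, numbered 2 and 3 in the tables, and every library was made from male animals aged 10 to 16 weeks, with about 2 animals pooled. The labels name no engineered allele and no treatment, and strain is the group label. Reads of B6 had been mapped to the mm10 genome and reads of D2 to the same genome with D2 variants swapped in, so that strain and reference cannot be told apart. Pooling means that the spread between the 2 libraries of a strain does not separate animals. Nothing in the labels says whether the libraries of the strains were prepared together. The study's methods describe capture of the snRNA-seq nuclei on a single chip. They do not say whether tissue of the strains was dissected or sorted together. Nuclei for snRNA-seq had been sorted on the neuronal protein NeuN to a set mixture of neuronal and non-neuronal nuclei, so that the share of OPCs in a library is not that of the tissue. The question addressed was which OPC transcripts differ in abundance between the strains.

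OPCs are the dividing glial cells of the adult brain that give rise to myelinating oligodendrocytes. They are held in the precursor state by growth factor signals, above all platelet-derived growth factor acting on Pdgfra, and their identity rests on the transcription factors Olig1, Olig2 and Sox10. They receive synapses from neurons through glutamate and GABA receptors, carry chondroitin sulfate proteoglycans such as Cspg4 on their surface, and pass through a committed stage marked by Gpr17, Bcas1 and Enpp6 before they switch on myelin genes.

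The OPC counts came, by the authors' numbers, from 392 and 386 nuclei for B6 and from 371 and 362 nuclei for D2. The summed OPC counts per library lay between 1224903 and 1598333, or 3302 to 4141 per nucleus. Across the symbols tested, log2 CPM (counts scaled to a common library size) correlated at 0.970 between the B6 libraries, at 0.967 between the D2 libraries and at 0.921 to 0.924 between strains, a description over genes that share these libraries. The identity of the cells was checked with markers. All 14 OPC markers were detected, and their summed level was 17050 to 18290 CPM in the 4 libraries. Markers of other cell types were lower, at 474 to 709 CPM for 12 oligodendrocyte markers, 1001 to 1143 CPM for 10 astrocyte markers, 185 to 269 CPM for 10 microglial markers, 165 to 237 CPM for 10 excitatory neuron markers and 22.6 to 52.0 CPM for 10 vascular markers. The 10 interneuron markers summed to 1637 to 2182 CPM, nearly all of it from Adarb2, while Gad1 had 61 to 79 counts per library. Oligodendrocyte markers were highest in D2 library 2, at 709 CPM against 516 CPM in D2 library 3 and 497 and 474 CPM in B6. Microglial markers were at 269 and 269 CPM in B6 and at 203 and 185 CPM in D2.

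In all, 1312 of the 11644 symbols tested differed between the strains at an adjusted p under 0.05 in edgeR's quasi-likelihood test, which is 11.3%. Of these, 566 were higher in D2 (4.86%) and 746 were lower (6.41%). DESeq2 called 392, with 138 higher (1.19%) and 254 lower (2.18%), and all 392 were among the 1312 with the same sign. The median absolute log2 fold change of the called symbols was 0.87, and 536 differed by at least 1 on the log2 scale. The median log2 fold change over all symbols tested was 0.01. Of the 1312 symbols, 447 were called in each of the 4 fits that left out 1 library. All differences below are D2 minus B6, with the standard error after the ± sign. It was derived from the test, as the absolute log2 fold change over the square root of its F statistic.

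What the called symbols shared was measured first, because it touches every group of genes described here. Of the 11644 symbols, 11521 had a single entry in the annotation used here (GENCODE vM21), and 2967 of these overlapped another gene on the same strand. Among the overlapping symbols 12.5% were lower in D2 and 3.74% higher, against 4.23% lower and 5.21% higher among the 8554 without an overlap. The balance within the 8554 depended on the fit. It was 446 higher and 362 lower in the fit to all symbols, and 331 higher and 388 lower in a fit to the 8554 alone. Of 1053 tested symbols that overlapped a gene counted in D2 only, 197 were lower in D2 and 32 higher. Of 28 tested symbols that overlapped the annotated gene Gm20388 of chromosome 8 on the same strand, 15 were lower in D2 and 0 higher. The share of symbols lower in D2 also rose with gene length, from 4.81% of genes up to 5 kb to 22.8% of genes over 300 kb. Genes over 300 kb without an overlap were lower in 18.9% of cases, and the Spearman correlation of log2 fold change with length across genes was -0.215. Antisense transcripts and long intergenic RNAs were lower in D2 in 16.5% and 15.2% of cases. The part of overlap and length in any result below was not tested, so the groups below are given with their calls after the trend with length was taken out. With that trend removed, 525 symbols were higher (4.56%) and 648 lower (5.62%).

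**Figure D1:**
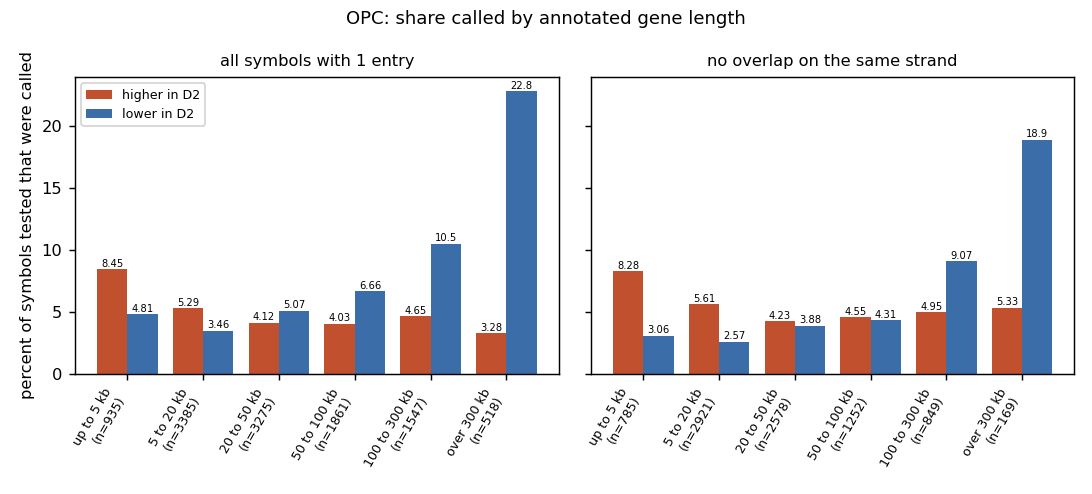
Share of symbols called higher (red) or lower (blue) in D2, in percent on the vertical axis, by the annotated length of the gene on the horizontal axis, for all symbols with 1 annotation entry (left) and for those with no overlap on their strand (right). The share lower in D2 was greatest over 300 kb, at 22.8% and 18.9%, and the share higher in D2 was greatest up to 5 kb, at 8.45% and 8.28%.

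Among the markers that define the precursor, Pdgfra and Cspg4 did not pass the test, while 3 markers that are transcription factors of the lineage, Olig1, Olig2 and Sox10, were higher in D2. Pdgfra, the receptor for platelet-derived growth factor, was at 1127 and 1148 CPM in B6 and at 1063 and 1196 CPM in D2, a difference of -0.01 ± 0.09 (adjusted p = 0.97). Cspg4, which encodes the NG2 proteoglycan, was at 321 and 295 CPM in B6 and at 329 and 327 CPM in D2, a difference of 0.09 ± 0.11 (adjusted p = 0.71). Neither passed the test. Of the 20 OPC markers, all of them tested, 7 were higher (35%) and 1 was lower (5%) in D2, and their median log2 fold change was 0.04. Over all symbols tested 4.86% were higher and 6.41% lower. The ranges of the strains were apart with D2 higher in 9 of the 20 and with D2 lower in 3, where 24.7% and 25.3% of all symbols tested were apart in these directions. Without D2 library 3 the count of higher markers was 4. The members had a median length of 66.6 kb, and with the length trend removed 7 were higher and 0 lower.

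Olig2, a basic helix-loop-helix factor required for the lineage, was at 79.0 and 69.9 CPM in B6 and at 124 and 164 CPM in D2. The D2 libraries were both higher, by 0.96 ± 0.15 on the log2 scale (adjusted p = 1.5e-07), or 1.95-fold. Sox10, the SOX factor that switches on myelin genes, was at 391 and 384 CPM in B6 and at 581 and 578 CPM in D2. The strains were separated by far more than the spread within either, with a difference of 0.58 ± 0.10 (adjusted p = 2.2e-06). Olig1, which neighbours Olig2, was at 57.9 and 65.3 CPM in B6 and at 87.0 and 122 CPM in D2, a difference of 0.77 ± 0.17 (adjusted p = 2.0e-04) that rested on D2 library 3, since the adjusted p was 0.19 without it. The other OPC markers higher in D2 were the proteoglycan Cspg5 (0.55 ± 0.09), the sialidase Neu4 (0.68 ± 0.12), the matrix protein Matn4 (0.46 ± 0.12) and the secreted C1q-like protein C1ql1 (0.44 ± 0.14). Matn4 was not called without library 3 of either strain, and C1ql1 was not called without any 1 library (adjusted p = 0.094 to 0.16). Tnr, which encodes the matrix protein tenascin R, was the 1 marker called lower (-0.25 ± 0.08), and with the length trend removed it was not called (adjusted p = 0.47).

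Of 28 tested lineage transcription factors 9 were higher in D2 (32.1%) and 0 lower, with a median log2 fold change of 0.36. Over all symbols tested 4.86% were higher. Besides Olig1, Olig2 and Sox10 the 9 were Sox2 (0.86 ± 0.22), Zfp488 (0.69 ± 0.22), Sox4 (0.65 ± 0.17), Tcf7l2 (0.65 ± 0.12), Nkx2-2 (0.49 ± 0.16) and Zeb2 (0.28 ± 0.09). In 18 of the 28 the strains were apart with D2 higher and in 4 with D2 lower. The shares apart in these directions were 24.7% and 25.3% of all symbols tested. The tested members had a median length of 24.6 kb, and with the length trend removed 10 were called higher, 7 of them among the 9. DESeq2 called 3, namely Olig2, Sox10 and Tcf7l2. Without D2 library 3 the count fell to 3, and without B6 library 3 to 5. Sox2, Sox4 and Zfp488 missed the threshold without D2 library 3, with adjusted p of 0.078, 0.20 and 0.28, and Sox4 and Zfp488 also without B6 library 3. The highest adjusted p without 1 library was 0.34 for Nkx2-2 and 0.30 for Zeb2.

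Genes of committed precursors and newly formed oligodendrocytes included the largest changes among the lineage lists. Of 18 tested, 9 were higher (50%) and 1 lower (5.56%) in D2, with a median log2 fold change of 0.38. The shares over all symbols tested were 4.86% and 6.41%. Enpp6, a choline-specific phosphodiesterase that marks newly forming oligodendrocytes, was at 24.8 and 20.7 CPM in B6 and at 142 and 78.1 CPM in D2. Both D2 libraries were well above B6, though D2 library 2 was the higher, and the difference was 2.26 ± 0.21 (adjusted p = 5.9e-19), or 4.78-fold. Bmp4, a secreted growth factor of the bone morphogenetic protein family, was at 23.3 and 17.5 CPM in B6 and at 83.6 and 73.7 CPM in D2, a difference of 1.95 ± 0.22 (adjusted p = 1.8e-13). Bcas1, another marker of the transition, was at 431 and 477 CPM in B6 and at 864 and 762 CPM in D2, a difference of 0.84 ± 0.10 (adjusted p = 5.0e-13). Enpp6, Bmp4 and Bcas1 were called in every fit that left out a library and by DESeq2. Genes annotated on the other strand were higher as well, Gm45600 over Enpp6 by 1.62 (adjusted p = 0.0065) and Bcas1os2 over Bcas1 by 0.67 (adjusted p = 3.6e-08). Whether counting kept reads of the strands apart was not tested, and the sources do not state it.

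The rest of this group did not all move the same way. The cell adhesion gene Nfasc was higher by 0.87 ± 0.12, the membrane skeleton gene Epb41l2 by 0.82 ± 0.14, the Wnt effector Tcf7l2 by 0.65 ± 0.12, Mpzl1 by 0.59 ± 0.13 and the kinase Fyn by 0.50 ± 0.10. Frmd4a was at 133 and 199 CPM in B6 and at 1019 and 592 CPM in D2, but it overlaps 7 genes on its strand, and Gm13187 on its other strand was higher too (2.28 ± 0.19). Gpr17, the receptor that marks the committed precursor, was at 170 and 138 CPM in B6 and at 182 and 150 CPM in D2, a difference of 0.11 ± 0.13 (adjusted p = 0.72). Tmem163, a zinc transporter, went the other way, at 292 and 283 CPM in B6 and at 89.5 and 85.5 CPM in D2, a difference of -1.72 ± 0.13 that was called by DESeq2 and in all 4 fits without 1 library. DESeq2 called 8 higher and 1 lower in this group, whose median length was 101.6 kb, and with the length trend removed 10 were higher and 1 lower. Epb41l2 and Mpzl1 each lost their call when 1 library was left out (highest adjusted p = 0.063 and 0.15). In sums over nuclei, more nuclei at a later stage and more transcript per nucleus cannot be told apart.

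Among myelin genes the calls rested on fewer libraries. Of 18 listed, 13 were tested, 4 were higher (30.8%) and 1 lower (7.69%) in D2, and the median log2 fold change was 0.17. The shares over all symbols tested were 4.86% and 6.41%. Mbp, which encodes myelin basic protein, was at 149 and 114 CPM in B6 and at 240 and 167 CPM in D2, a difference of 0.63 ± 0.13 (adjusted p = 1.6e-04). It was highest in D2 library 2, the library with the highest oligodendrocyte marker sum, and it was not called without that library (adjusted p = 0.24) or without B6 library 3 (adjusted p = 0.077). The sulfotransferase Gal3st1 was higher by 0.65 ± 0.17 and Prr5l by 1.80 ± 0.62, the latter on 3 to 12 counts per library and lost without any 1 of the libraries. Mobp, a structural myelin gene, was at 25.6 and 23.9 CPM in B6 and at 8.53 and 2.95 CPM in D2, a difference of -2.14 ± 0.40 (adjusted p = 9.4e-06), and it overlaps 1 gene on its strand. Of this list only Mobp was called by DESeq2, and the count of higher genes was 1 without D2 library 2 and 2 without B6 library 3. The median length was 31.8 kb, and with the length trend removed 5 were higher and 1 lower. The share that oligodendrocyte RNA had in these values was not tested.

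**Figure D2:**
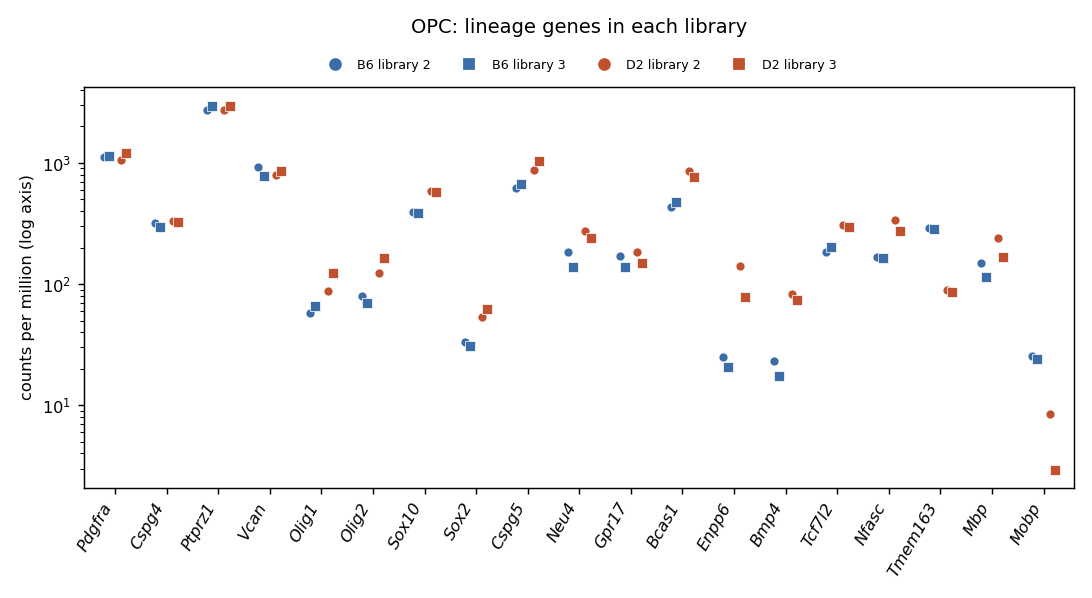
CPM on a log axis for 19 genes of the oligodendrocyte lineage in the OPC sums of the 4 libraries, with B6 in blue, D2 in red, library 2 as circles and library 3 as squares. Pdgfra, Ptprz1, Vcan and Gpr17 overlapped between strains, Olig2, Sox10, Bcas1, Enpp6 and Bmp4 were higher in both D2 libraries, and Tmem163 and Mobp were lower in both.

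The promoters of 3 of the lineage genes that were higher in D2 are shown because these genes lead the lineage results. Each is the RefSeq window (GRCm38.p6, the build of the files) from 250 bases before to 50 after a start site, and it is the reference sequence of B6, not of D2. Capitals mark ACAAAG or ACAATG, 2 forms of the SOX core motif searched on both strands, so that CTTTGT and CATTGT count as well. Olig2 lies at chr16:91225300-91225599 on the plus strand, Enpp6 at chr8:46986637-46986936 on the plus strand and Bmp4 at chr14:46390620-46390919 on the minus strand.
Olig2: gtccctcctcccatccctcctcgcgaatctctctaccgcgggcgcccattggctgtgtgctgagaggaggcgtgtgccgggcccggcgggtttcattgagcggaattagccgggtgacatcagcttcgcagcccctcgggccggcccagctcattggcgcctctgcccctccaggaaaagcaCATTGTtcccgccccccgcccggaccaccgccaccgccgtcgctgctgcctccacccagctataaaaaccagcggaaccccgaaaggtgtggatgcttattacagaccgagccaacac
Enpp6: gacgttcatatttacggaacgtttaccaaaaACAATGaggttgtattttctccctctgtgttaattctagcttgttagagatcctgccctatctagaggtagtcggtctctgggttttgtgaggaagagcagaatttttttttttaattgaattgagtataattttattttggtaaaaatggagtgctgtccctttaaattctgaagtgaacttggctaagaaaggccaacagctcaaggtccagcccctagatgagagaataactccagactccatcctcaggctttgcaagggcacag
Bmp4: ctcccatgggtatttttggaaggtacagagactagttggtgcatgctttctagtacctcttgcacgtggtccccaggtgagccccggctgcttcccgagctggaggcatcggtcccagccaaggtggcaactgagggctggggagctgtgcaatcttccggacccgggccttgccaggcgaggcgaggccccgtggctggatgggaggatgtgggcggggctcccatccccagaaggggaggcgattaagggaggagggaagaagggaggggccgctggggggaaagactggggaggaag
The motif was found once for Olig2, once for Enpp6 and not for Bmp4. It occurred in 28.6% of the 32851 promoters of the table, in 20.3% of the promoters of symbols tested, in 20.5% of those of symbols higher in D2 and in 24.9% of those of symbols lower in D2. Promoters were found for 76 of the 111 named genes.

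Among growth factor and signalling receptors of precursors, 0 of 32 tested were higher and 3 (9.38%) were lower in D2, a share near the 6.41% of all symbols tested, and the median log2 fold change was -0.01. Erbb4, a neuregulin receptor, was at 3021 and 2721 CPM in B6 and at 2122 and 2188 CPM in D2, a difference of -0.41 ± 0.08 (adjusted p = 2.3e-05). Fgfr2, a fibroblast growth factor receptor, differed by -0.47 ± 0.09 (adjusted p = 2.9e-05) and Ntrk2, the receptor for brain-derived neurotrophic factor, by -0.30 ± 0.10 (adjusted p = 0.045). The median length of the list was 85.5 kb. All 3 overlap other genes on their strand, Erbb4 has 8 such partners and Fgfr2 has 36. With the length trend removed the differences were -0.22 for Erbb4, -0.26 for Fgfr2 and -0.15 for Ntrk2, and the last was not called (adjusted p = 0.40). Without B6 library 2 only Erbb4 was called, since Fgfr2 reached an adjusted p of 0.052 and Ntrk2 of 0.39.

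Proteoglycan and matrix genes went both ways, with 3 of 33 higher (9.09%) and 5 lower (15.2%) in D2 and a median log2 fold change of -0.08. Over all symbols tested the shares were 4.86% and 6.41%. Cspg5 was at 617 and 676 CPM in B6 and at 868 and 1027 CPM in D2, and it was the member of this list that DESeq2 and all 4 fits without 1 library also called. Matn4 and Col9a1 (1.79 ± 0.53, on 3 to 18 counts per library) were the other genes higher in D2. The median length was 168.9 kb, and with the length trend removed 5 were higher and 3 lower. Acan, which encodes the proteoglycan aggrecan, was at 42.9 and 38.8 CPM in B6 and at 20.5 and 22.1 CPM in D2, a difference of -0.93 ± 0.26 (adjusted p = 0.0062). The heparan sulfate enzymes Ndst3 (-1.34 ± 0.36), Hs3st4 (-1.11 ± 0.33) and Sulf2 (-0.38 ± 0.12) were lower as well, as was Tnr. Without D2 library 3 the counts were 1 higher and 1 lower, without B6 library 2 they were 4 and 2, and without B6 library 3 they were 1 and 5. Vcan, a large matrix proteoglycan, differed by -0.04 ± 0.09 (adjusted p = 0.87) and was not called.

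Neurotransmitter receptor genes that were called were lower in D2 with 1 exception. Of 26 glutamate receptor genes tested, 0 were higher and 5 lower (19.2%), with a median log2 fold change of -0.15. The share lower in D2 was 6.41% over all symbols tested, 10.5% for genes of 100 to 300 kb and 22.8% for longer genes. Grin2a, an NMDA receptor subunit, was at 87.3 and 104 CPM in B6 and at 57.1 and 55.3 CPM in D2, a difference of -0.77 ± 0.17 (adjusted p = 3.5e-04). Grin3a, a further NMDA receptor subunit, was at 551 and 629 CPM in B6 and at 404 and 453 CPM in D2, a difference of -0.46 ± 0.10 (adjusted p = 2.7e-04). The other 3 were Grm3 (-0.85 ± 0.22), Grin2b (-0.74 ± 0.17) and the kainate receptor gene Grik1 (-0.45 ± 0.11). Gria2 and Gria4, subunits of the AMPA receptors, were not called, with differences of 0.03 ± 0.08 and -0.13 ± 0.09. The members tested had a median length of 298.3 kb and 16 overlapped another gene, and with the length trend removed all 5 were called lower and 1 gene, Grik4, was called higher. DESeq2 called 2 of the 5, Grin3a and Grik1. Grin2b missed the threshold without B6 library 2 (adjusted p = 0.15) or D2 library 3 (adjusted p = 0.27), Grm3 without library 3 of either strain (adjusted p = 0.11 and 0.12) and Grik1 without D2 library 2 (adjusted p = 0.076).

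Of 16 GABA receptor and transporter genes, 1 was higher (6.25%) and 4 were lower (25%), with a median log2 fold change of -0.17. Over all symbols tested 4.86% were higher and 6.41% lower in D2. Gabra2, the alpha-2 subunit of the GABA-A receptor, was at 139 and 153 CPM in B6 and at 65.7 and 93.6 CPM in D2, a difference of -0.86 ± 0.15 (adjusted p = 2.4e-06). Gabrb1, the beta-1 subunit encoded in the same gene cluster on chromosome 5, was at 541 and 463 CPM in B6 and at 334 and 335 CPM in D2, a difference of -0.58 ± 0.11 (adjusted p = 5.3e-06). Both were called by DESeq2, with the length trend removed and in each fit without 1 library. The list had a median length of 110.6 kb, and with the length trend removed 2 members were higher and 2 lower. Gabra4 (-0.90 ± 0.30), which overlaps Gabrb1 on the other strand, and Gabbr2 (-0.49 ± 0.15) were lower and Gabrb2 (0.34 ± 0.12) was higher. Gabra4 and Gabbr2 kept their call only without B6 library 3, with adjusted p up to 0.23 and 0.12 in the other 3 fits, and Gabrb2 lost it without any 1 library (adjusted p = 0.12 to 0.33).

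Ion channel genes gave 0 higher and 7 lower (20%) of 35 tested, with a median log2 fold change of -0.16 and a median length of 363.8 kb. Over all symbols tested 6.41% were lower in D2, and over genes longer than 300 kb 22.8% were, a share near that of the list. Kcnip4, a subunit that modulates A-type potassium channels, was at 378 and 407 CPM in B6 and at 148 and 136 CPM in D2, a difference of -1.47 ± 0.12 (adjusted p = 3.5e-23), and it overlaps 24 genes. Cacna1a, the pore subunit of P/Q-type calcium channels, overlaps none and was at 436 and 426 CPM in B6 and at 289 and 296 CPM in D2, a difference of -0.56 ± 0.11 (adjusted p = 2.3e-05). Lower genes also included Kcnip1 (-0.58 ± 0.11), Trpm3 (-0.42 ± 0.12), Kcnn2 (-0.41 ± 0.13) and Kcnd3 (-0.35 ± 0.11). With the length trend removed 4 of the 7 were called, among them Kcnip4, Kcnip1 and Cacna1a, and 1 gene was higher. The count of lower genes was 4 without B6 library 2 and 3 without either D2 library, and Kcnip4, Kcnip1 and Cacna1a were called throughout.

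**Figure D3:**
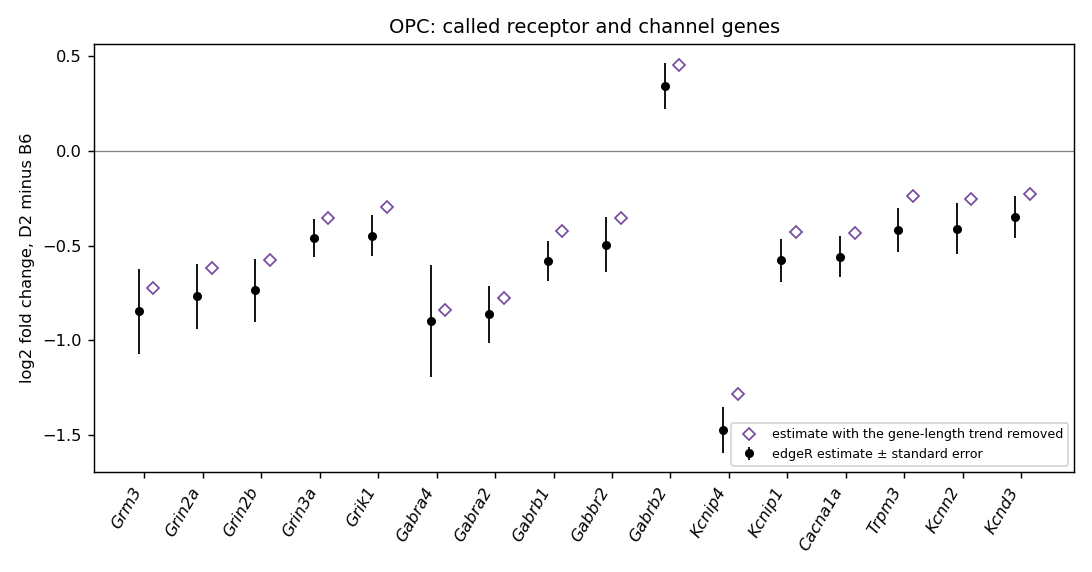
Log2 fold change (D2 minus B6) of 16 called glutamate receptor, GABA receptor and ion channel genes, as the edgeR estimate with its standard error (black) and as the estimate with the gene-length trend removed (open diamonds). All estimates but that of Gabrb2 (0.34) lay below 0, and removing the trend moved every one of them upward.

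Adhesion and axon guidance genes had the greatest median length of the 15 lists at 468.1 kb, with 37 of 60 members overlapping another gene. Of the 60, 2 were higher (3.33%) and 13 lower (21.7%) in D2, and the median log2 fold change was -0.13. Over all symbols tested 4.86% were higher and 6.41% lower, and 22.8% of genes over 300 kb were lower. Nrxn2, a presynaptic adhesion gene without an overlap, was at 627 and 497 CPM in B6 and at 353 and 324 CPM in D2, a difference of -0.73 ± 0.11 (adjusted p = 5.6e-09). Sema3e (-1.24 ± 0.16) and Sema3d (-0.73 ± 0.11), which encode secreted semaphorins, were lower, and Gm4128 on the other strand of Sema3e was lower too. Cntnap2 (-1.52 ± 0.16) overlaps 24 genes and Cdh18 (-0.71 ± 0.12) overlaps 2. Ephb1, an ephrin receptor that overlaps 3 genes, was higher, at 33.9 and 23.3 CPM in B6 and at 84.4 and 50.9 CPM in D2, a difference of 1.24 ± 0.22 (adjusted p = 3.1e-06). Robo2 was called lower (-0.77 ± 0.21), but its ranges overlapped at 35.4 and 96.4 CPM in B6 and 42.6 and 36.9 CPM in D2, and without B6 library 3 the estimate was 0.16 (adjusted p = 0.84). With the length trend removed the list had 9 higher and 10 lower members and a median of 0.02, against 2 and 13 without the correction.

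**Figure D4:**
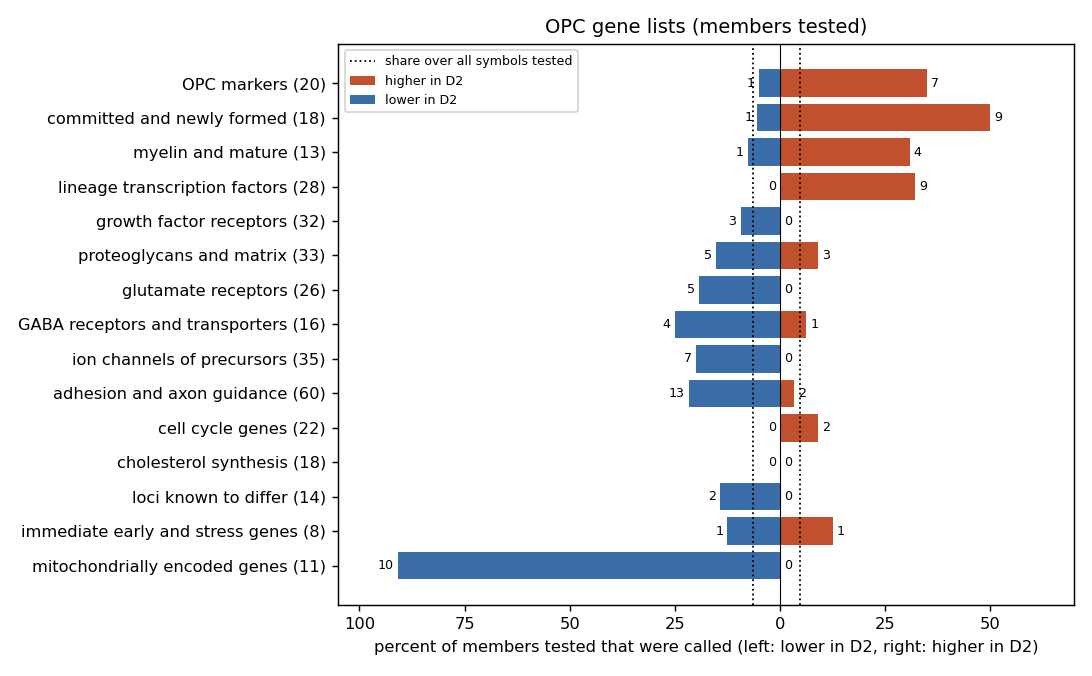
Percent of the tested members of each of 15 gene lists that were called higher in D2 (red, right) or lower (blue, left), with the number called beside each bar and the number tested in parentheses. Dotted lines give the shares over all symbols tested, 4.86% higher and 6.41% lower. Lineage lists lay on the higher side and receptor, channel and adhesion lists on the lower side. Of genes over 300 kb 22.8% were lower in D2, beside 20% of the ion channel list and 21.7% of the adhesion list.

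The largest changes were then taken by a fixed rule, the 12 symbols with the largest fold change in each direction among called symbols of at least 20 CPM. All of the 12 decreases except Fggy overlapped another gene on their strand or were mitochondrial genes, of which nuclear copies are known, so they are reported as uncertain. mt-Co3, a subunit of cytochrome c oxidase, had 1653 and 2396 counts in B6 and 2 and 2 in D2, and mt-Co2 had 1168 and 1755 counts in B6 and 2 and 2 in D2. Of 11 mitochondrial genes tested 10 were lower in D2 (90.9%) and 0 higher, where 6.41% of all symbols tested were lower. DESeq2 called 5 of them, which were mt-Co1, mt-Co2, mt-Co3, mt-Atp6 and mt-Nd4. The ranges of the strains were apart with D2 lower for these 5, as for 25.3% of all symbols tested. They overlapped for the others, as for mt-Nd1, which was at 317 and 501 CPM in B6 and at 374 and 257 CPM in D2. Cox16 (-5.08 ± 0.21), Umad1 (-4.79 ± 0.29), Zfp91 (-4.48 ± 0.37), Schip1 (-3.99 ± 0.18), Galnt2 (-3.93 ± 0.41), Spire2 (-3.83 ± 0.41), Glcci1 (-3.38 ± 0.25) and Stard13 (-3.32 ± 0.18) each overlap at least 1 gene on their strand.

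Among nuclear genes without an overlap, a selection added after the data were seen, the increases were led by Stab2, a scavenger receptor for hyaluronan, at chr10:86841198-87008025. It was at 4.51 and 2.59 CPM in B6 and at 135 and 188 CPM in D2, a difference of 5.51 ± 0.27 (adjusted p = 1.3e-45), and the genes on its other strand, Gm16268 (5.82) and Gm16271 (4.49 ± 0.44), were higher too. The B6 libraries held 6 and 4 counts of Stab2. B430010I23Rik, an antisense RNA gene, followed at 4.53 ± 0.44, with Mtus1 on its other strand at 2.64. Fam163a was at 6.77 and 5.17 CPM in B6 and at 70.8 and 76.7 CPM in D2, and Rnf121, an endoplasmic reticulum ubiquitin ligase, was at 44.4 and 31.0 CPM in B6 and at 305 and 257 CPM in D2. Kif19a, a kinesin (2.80 ± 0.37), Zfhx4, a homeobox zinc-finger factor (2.40 ± 0.29, with 2700069I18Rik on its other strand at 3.14), Sav1, a scaffold of the Hippo pathway (2.12 ± 0.20), and Zfp951 (2.20 ± 0.33) followed. Rap1gapos, antisense to Rap1gap, was higher by 2.72 ± 0.21, whereas Rap1gap itself differed by -0.11 (adjusted p = 0.68).

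The decreases without an overlap were led by Fggy, a carbohydrate kinase, at chr4:95557507-95926939, with 37.6 and 45.3 CPM in B6 and 1.71 and 2.95 CPM in D2. Its difference was -4.08 ± 0.42 (adjusted p = 8.0e-16), or 16.9-fold lower in D2. Ebf1, a transcription factor best known from B lymphocytes, was at 117 and 93.1 CPM in B6 and at 14.5 and 8.11 CPM in D2, a difference of -3.23 ± 0.24 (adjusted p = 3.3e-26). Zbtb16, a zinc-finger transcription factor, was at 264 and 122 CPM in B6 and at 41.8 and 33.9 CPM in D2, a difference of -2.34 ± 0.18, with B6 library 2 well above B6 library 3. Plscr4, a phospholipid scramblase (-2.37 ± 0.25), Snrpf, a spliceosome core protein (-2.25 ± 0.27), Trnp1, a nuclear protein of neural progenitors (-1.91 ± 0.33), and the noncoding B230217J21Rik (-2.77 ± 0.17) were lower too. Every symbol of this selection was also called by DESeq2 and in all 4 fits without 1 library.

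**Figure D5:**
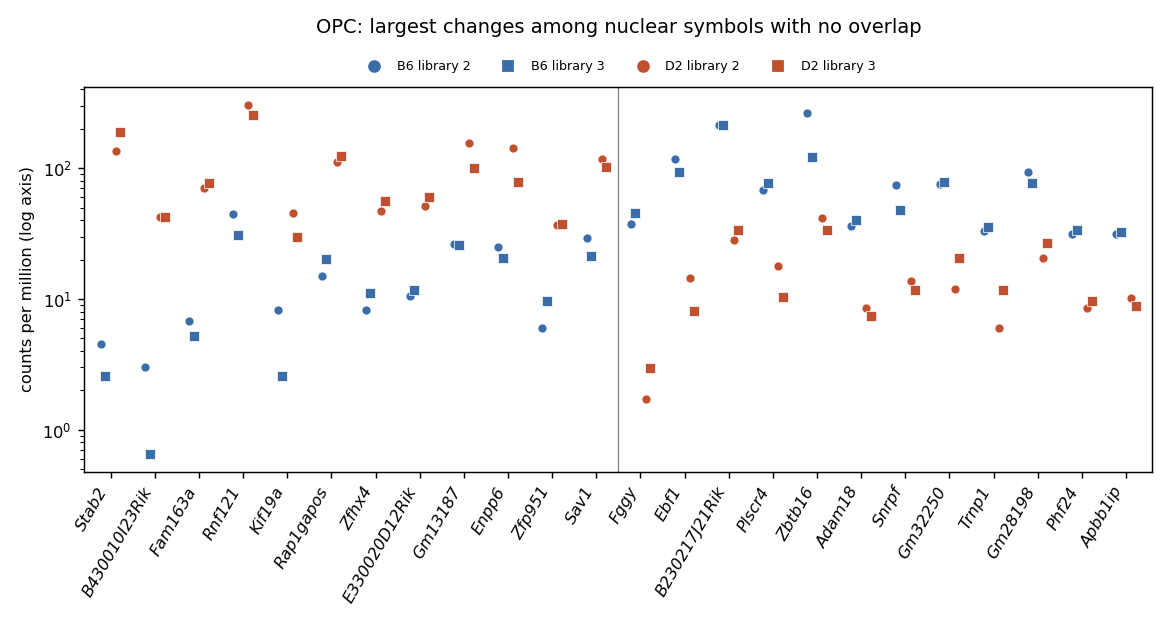
CPM on a log axis in the 4 libraries for the 12 largest increases (left of the line) and the 12 largest decreases (right) among called nuclear symbols with no overlap on their strand. The strains did not overlap for any of the 24, as the selection required, from Stab2 at 2.59 to 4.51 CPM in B6 against 135 to 188 CPM in D2 to Fggy at 37.6 to 45.3 CPM against 1.71 to 2.95 CPM.

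Chromatin accessibility in OPCs was a second readout that the choice of symbols did not use. It rested on 26 and 14 nuclei in B6 and 32 and 25 in D2, by the authors' numbers. These were 0.291% to 0.412% of the snATAC-seq nuclei per library, where OPCs were 4.5% to 5.74% of the snRNA-seq nuclei. The snATAC-seq nuclei had not been sorted on NeuN. Whether the OPC label held the same population in both assays was not tested. The libraries had 278059 to 418650 counts, with a median of 20 counts over all 4 libraries per tested peak. Of 28549 peaks tested 9 differed between strains, which is 0.0315%, with 7 higher and 2 lower in D2, and 1333 had an unadjusted p under 0.05. DESeq2 called 5. Of 83 tested peaks within 2 kb of the start of a named gene, at 80 genes, 1 was called.

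That peak lay at the start of Sfi1, a centrosomal protein gene, at chr11:3192223-3193882, where it also covers part of Drg1. It held 10 and 9 counts in B6 and 129 and 147 in D2, a difference of 3.33 ± 0.31 (adjusted p = 5.0e-08), or 10.0-fold. Sfi1 RNA was at 45.1 and 46.6 CPM in B6 and at 600 and 637 CPM in D2 (3.75 ± 0.14), while Drg1 RNA differed by 0.02 (adjusted p = 0.95). The other 15 peaks over Sfi1 summed to 10 and 9 counts in B6 and 75 and 140 in D2. Pisd, a phosphatidylserine decarboxylase gene, was higher in D2 RNA by 3.02 ± 0.17, but it has annotated pseudogene copies, 1 of them beside Sfi1, that had 0 counts in both B6 libraries and in D2 18 and 31 counts (Pisd-ps1) and 348 and 365 counts (Pisd-ps2). Sfi1 and Pisd are therefore reported as uncertain.

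At other named genes no peak passed the test, with a median of 31 counts per peak. Of 63 named genes called in RNA with a tested peak over their start, the peak differed in the same direction as the RNA in 31 and in the opposite direction in 32. Among the 33 without an overlap the numbers were 17 and 16. The peak at the start of E330020D12Rik, a noncoding RNA gene, held 0 and 0 counts in B6 and 13 and 8 in D2 (adjusted p = 0.24, or 0.0187 when only peaks of at least 20 counts were tested), where the RNA was at 10.5 and 11.6 CPM in B6 and at 51.2 and 59.7 CPM in D2. The peak at the start of Fggy held 8 and 7 counts in B6 and 0 and 1 in D2 (adjusted p = 0.32). These 2 were picked after their values were seen. The peak at the start of Nfasc went against its RNA, with 10 and 10 counts in B6 and 5 and 7 in D2 (-1.24 ± 0.53, adjusted p = 0.96). The promoters of these genes are shown in the same way as above, at chr1:153414184-153414483 on the minus strand and chr4:95557257-95557556 on the plus strand, with the SOX core motif found once and not at all.
E330020D12Rik: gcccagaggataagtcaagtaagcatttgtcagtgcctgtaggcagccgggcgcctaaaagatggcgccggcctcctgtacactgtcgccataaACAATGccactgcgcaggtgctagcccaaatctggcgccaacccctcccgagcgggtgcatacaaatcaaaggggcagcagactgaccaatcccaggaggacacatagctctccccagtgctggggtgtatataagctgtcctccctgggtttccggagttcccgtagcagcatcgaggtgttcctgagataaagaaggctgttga
Fggy: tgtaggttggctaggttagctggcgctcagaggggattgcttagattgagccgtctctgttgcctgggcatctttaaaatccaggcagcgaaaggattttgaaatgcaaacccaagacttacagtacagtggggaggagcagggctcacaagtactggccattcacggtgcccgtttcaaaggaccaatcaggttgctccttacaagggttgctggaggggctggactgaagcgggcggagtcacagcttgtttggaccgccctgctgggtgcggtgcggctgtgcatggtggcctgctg
Olig1 (9, 8, 16 and 18 counts) and Olig2 (9, 13, 22 and 16 counts) had peaks at their starts that were not called, with differences of 0.48 ± 0.42 and 0.27 ± 0.40, intervals wide enough to hold differences as large as those of their RNA. Peaks with small differences were also seen where the RNA differed widely, with 31, 26, 45 and 40 counts for Zfp91 (0.06 ± 0.28) 20, 13, 28 and 24 counts for Umad1 (0.14 ± 0.34), which both overlap another gene, and with 8, 7, 8 and 17 counts for Snrpf (0.21 ± 0.49) and 10, 7, 17 and 15 counts for Rnf121 (0.39 ± 0.44), which do not. The 43 peaks on unplaced scaffolds held 155 and 154 counts in B6 and 0 in both D2 libraries, and the 2 peaks lower in D2 were among them, at least 56.0-fold and at least 36.4-fold lower against a floor of 3 counts. Whether the D2 reference held these scaffolds was not tested, so these 2 peaks are reported as uncertain.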

How the data were processed

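Raw counts per gene and per peak, summed by the authors over the OPC nuclei of each library, were used as deposited. Per the labels and the study's methods, transcript reads were mapped by the authors using Cell Ranger 6.0.2, which kept introns, and chromatin reads using Cell Ranger ATAC 2.0.0, to mm10 for B6 and to mm10 with D2 variants for D2. They removed low-quality nuclei and doublets, clustered with Seurat 4.0.5 and merged peaks called per library. Cell types of snATAC-seq nuclei were transferred from snRNA-seq. The annotation release and the use of strand are not given in the sources used here.

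From the counts, edgeR 4.0.16 (R 4.3.3) was fitted to the 4 OPC columns with TMM normalization, its filter on low counts and the quasi-likelihood test, with Benjamini-Hochberg adjustment over all symbols or peaks tested and a threshold of 0.05. All adjusted p-values are from this fit unless DESeq2 1.42.0 is named. Peaks needed at least 10 counts in all. The scripts were tested on simulated data. The labels say that tissue of about 2 animals was pooled per library, so p-values rest on 2 pools per strain and not on single animals. The fit estimates the spread of each symbol or peak partly from that of all others tested. Its p-values therefore do not measure the spread between the 2 pools of that symbol alone. Columns were placed by strain only, since library numbers in the tables (2 and 3) differ from those in the labels. Another 120 sample columns were not used, and methylation was not analysed here. Values of some called list members are not reported here. Planned comparisons of the strain difference in OPCs with that in oligodendrocytes and astrocytes were not run, because only the OPC columns were mapped. Overlap and length came from GENCODE vM21, in which 32709 of the 33902 symbols had 1 entry.

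Named genes were the 12 largest changes in each direction (called, mean of at least 20 CPM, counts in every library, strains apart), up to 6 called members per list, Pdgfra, Cspg4, Olig1, Olig2, Sox10 and Mbp, and the tested loci known to differ between the strains. Further genes were named after their values were seen. Members and lists were chosen with earlier results of these data known. Alternatives were DESeq2, other normalization, filters, symbol sets and a fold threshold, a library block and fits without 1 library. The length correction (a loess on log10 length, as offsets), the set without overlap, and for peaks the block and the fits without 1 library were added after the data were seen.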

Additional observations from a re-analysis of the deposited data

How the results depend on the processing

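Of the 1312 symbols called (566 higher and 746 lower in D2), DESeq2 called 392 (138 and 254), and 536 (218 and 318) also differed by at least 1 on the log2 scale. Leaving out overlapping symbols gave 719 (331 and 388), and the set without overlap or mitochondrial genes and with counts in every library gave 743 (348 and 395). Allowing symbols counted in 1 strain gave 1971, with 1083 higher. Leaving out 1 library gave 757 to 973 called, 319 to 407 higher and 438 to 566 lower. Normalization, the other filters, protein-coding genes alone and the length correction gave 1056 to 1294. Equal library numbers did not pair the samples (Pearson r of deviations 0.001 across 11644 genes), and with the library number as a replicate block 1350 were called, 1306 of them among the 1312. Of the 97 named genes called, DESeq2 called 67 and the length correction left 89. Without 1 library the log2 fold change of Robo2 ranged from -1.29 to 0.16, that of Pdgfra from -0.093 to 0.074, of Glo1 from -0.43 to 1.12, of Kcnj9 from -0.25 to 0.92 and of H2-K1 from -0.47 to 0.31, so that these changed sign. Robo2 was the only one of them called. Of peaks, 9 were called, 19 with at least 20 counts per peak (the start of E330020D12Rik among them), 5 by DESeq2, 18 with the replicate block and 8 to 12 without 1 library. Near named genes 1 was called, and 2 with at least 20 counts, with the block or without D2 library 3 (1 to 2 without 1 library). The cause of these changes was not tested. The alternatives of the planned comparisons with oligodendrocytes and astrocytes were not run. The peak counts came from 14 to 32 nuclei per library, which limits what they can show.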

Other observations

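Cell cycle genes, which mark the dividing fraction of precursors, had 2 of 22 tested members (9.09%) higher in D2 and 0 lower in edgeR's test, where 4.86% of all symbols tested were higher. With the length trend removed 1 was higher. Ccnd1, cyclin D1, was at 41.4 and 60.8 CPM in B6 and at 66.5 and 88.4 CPM in D2 (0.59 ± 0.18, adjusted p = 0.018), and Cdk6, its partner kinase, was at 33.1 and 23.3 CPM in B6 and at 46.0 and 42.7 CPM in D2 (0.67 ± 0.24, adjusted p = 0.049). Neither was called without D2 library 3 or by DESeq2. Mki67, a marker of proliferating cells, had 11 and 17 counts in B6 and 20 and 24 in D2 and was not called (adjusted p = 0.15). None of 18 tested cholesterol synthesis genes was called by edgeR, with or without the length trend, or by DESeq2. Their median log2 fold change was -0.17, and edgeR called 11.3% of all symbols tested.

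Of 14 tested loci known to differ between these strains, 2 were lower in D2 (14.3%), where 6.41% of all symbols tested were lower. With the length trend removed 2 of the loci were lower and 1 higher. Gpnmb, a transmembrane glycoprotein gene, was at 22.6 and 30.4 CPM in B6 and at 3.41 and 1.47 CPM in D2 (-3.44 ± 0.47, adjusted p = 7.1e-10), or 10.9-fold lower. Gabra2 was the other. Alad, a heme synthesis enzyme gene, was at 2.26 and 5.82 CPM in B6 and at 15.3 and 8.11 CPM in D2 (1.45 ± 0.52, adjusted p = 0.052), and the peak at its start held 8 and 4 counts in B6 and 26 and 25 in D2 (adjusted p = 0.69). Of 8 tested immediate early and stress genes 1 was higher (12.5%) and 1 lower (12.5%) in D2. The shares over all symbols tested were 4.86% and 6.41%. Jun was higher (0.86 ± 0.22, adjusted p = 0.0029), with an estimate of 0.60 without B6 library 2, and DESeq2 did not call it (adjusted p = 0.23). Hspa8, which overlaps 3 genes, was lower (-1.19 ± 0.18, adjusted p = 1.5e-08). Both were called with the length trend removed.

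The peak at chr4:62501507-62502658 over Hdhd3 held 1 and 6 counts in B6 and 34 and 50 in D2 (adjusted p = 0.0012), a call that DESeq2 did not make (adjusted p = 0.11) and that was lost when 1 library was left out (highest adjusted p = 0.056), while Hdhd3 RNA had 3, 2, 4 and 8 counts. The peak at chr3:62158955-62159536 held 0 and 0 counts in B6 and 19 and 22 in D2, at least 10.0-fold higher against a floor of 3 counts over the strain, and DESeq2 did not call it (adjusted p = 0.29).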
